A study of Mus musculus with 10 samples.

Results

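The genes described here are 42 genes that hair cells, the sensory receptor cells of the inner ear, are known to use for their fate, their stereocilia, mechanotransduction and synapses. They were listed by symbol, with the older symbol Myo15 for Myo15a, out of 54532 genes in the count table. With a minimum of 10 counts in at least 5 libraries, 40 of them were compared between genotypes, and Insm2 and Ocm fell short of it. The libraries were made from cochlear soft tissue of female mice on postnatal day 1, with both ears of an animal combined. All 10 animals carried Esrrg alleles flanked by loxP sites (Esrrgfl/fl). The 5 controls had no further allele named, and the 5 animals labelled conditional knockout (cKO) also carried Sox10-Cre, a recombinase under regulatory sequence of Sox10. Sox10 is active in otic epithelium, glia and melanocytes, so the recombination is not limited to hair cells, and no group with Cre alone was among the samples. The product of Esrrg is a nuclear receptor, estrogen-related receptor gamma.

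A hair cell carries a staircase of stereocilia, protrusions filled with crosslinked actin. Tip links made of cadherin 23 and protocadherin 15 pull on a channel complex when the bundle is deflected, and the current drives glutamate release at ribbon synapses. Atoh1 starts hair cell differentiation, and Pou4f3, Gfi1, Barhl1 and Lhx3 act downstream in maturation and survival. In mice, hearing begins some time after birth, so bundles, transduction and synapses are still maturing at this age.

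Libraries held 33487089 to 41779836 counts. Esrrg itself was higher in the libraries labelled cKO, with 58.4 ± 6.34 CPM (counts scaled by library size) in controls against 89.8 ± 15.2 CPM (SD, n = 5 each) and a log2 fold change of 0.62 (edgeR adjusted p 0.0259). The targeted gene thus went against its label, a gene-level count does not show which exons remain, and every direction below rests on the labels. Defining hair cell markers such as Myo7a, Pou4f3 and Atoh1 had counts in every library, and only Insm2, Slc26a5 and Ocm were at 0 in any. The samples are bulk tissue, in which fewer hair cells and less RNA per hair cell cannot be told apart.

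Clrn1 was the only one of the 40 genes to pass the test. It encodes clarin 1, a small membrane protein of the hair bundle and synapse whose loss causes a form of Usher syndrome, inherited deafness with blindness. The gene (ENSMUSG00000043850; GRCm38 chromosome 3, 58844028 to 58885340, minus strand) shared no exon sequence with another gene. Because it is the gene on which the comparison turns, the stretch directly before its annotated start is shown, from RefSeq on GRCm38.p6 at chr3:58885341-58885462, minus strand. Capitals mark a match to CAGATG on the opposite strand, a short sequence of the E-box type that factors of the Atoh1 class bind, beginning 12 bases before the start. Barhl1 and Espn, described below, carried another E-box, CAGCTG, 99 and 219 bases before their starts, and 30 bases around it are shown from chr2:28916750-28916779 and chr4:152152573-152152602, both on the minus strand.
Clrn1: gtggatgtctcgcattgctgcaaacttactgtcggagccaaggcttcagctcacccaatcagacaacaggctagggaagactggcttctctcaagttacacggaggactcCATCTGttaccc
Barhl1: ggccacgcagccCAGCTGgccctcctccca
Espn: gaggccactgggCAGCTGagtgaacgggtc

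Promoter windows of 300 bases, 250 before to 50 after a RefSeq start, matched 33 of the 42 genes by symbol. CAGCTG, which reads the same on both strands, was found in windows of 9 of them (27.3%), against 18.3% of all 27025 genes with a window. CAGATG, searched on both strands and not overlapping CAGCTG in its letters, was found in 6 (18.2%), against 19.2% of all. AAGGTCA, the core that estrogen-related receptors bind, was found on either strand in 0 of these genes and in 5.38% of all genes. A match is a description of the letters, and its absence says only that they are not in this window.

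Clrn1 fell in the libraries labelled cKO. It had 13.2, 10.6, 11.6, 12.8 and 12.8 CPM in control libraries 1 to 5 and 7.46, 8.06, 8.48, 6.56 and 7.84 CPM in libraries 1 to 5 labelled cKO. The lowest control lay above the highest library labelled cKO, so the genotypes did not overlap. The means were 12.2 ± 1.07 and 7.68 ± 0.726 CPM (SD, n = 5 each), which is 0.630 times the control level and a log2 fold change of -0.67 (SE 0.109, edgeR adjusted p 0.00985), with a 95% interval of -0.90 to -0.43. Behind these values stood 378 to 566 counts in each control and 249 to 341 counts in each library of the other genotype. With each library left out in turn, the edgeR adjusted p stayed at or below 0.0420 and the log2 fold change between -0.72 and -0.61.

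None of the other 39 tested genes passed with Clrn1. On the log2 CPM scale, Clrn1 minus the mean of the other 39 tested genes was 0.44, 0.47, 0.48, 0.52 and 0.78 in control libraries 1 to 5, and -0.21, 0.19, -0.13, -0.36 and -0.26 in libraries 1 to 5 labelled cKO. The 2 genotypes did not overlap on this difference, which is a description without a test. It uses the same Clrn1 values as above, so it is no separate support. Clrn1 RNA is also known from spiral ganglion neurons. Of 15 neuron markers, 3 were lower at an edgeR adjusted p under 0.05 (Slc17a7, Scrt2 and Elavl4), against 0.546% of all tested genes. Of these markers 0 were higher, and none was at 0 counts in all libraries. At an unadjusted p under 0.05, 6 were lower and 1 higher, or 46.7%, against 9.65% of all tested genes. Their summed level was 1506 to 1584 CPM in the controls and 1003 to 1741 CPM in the libraries labelled cKO. The neuron list was chosen with earlier results of these data known, so these shares are a description. The part of these neuron genes in the Clrn1 result was not tested.

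**Figure D1:**
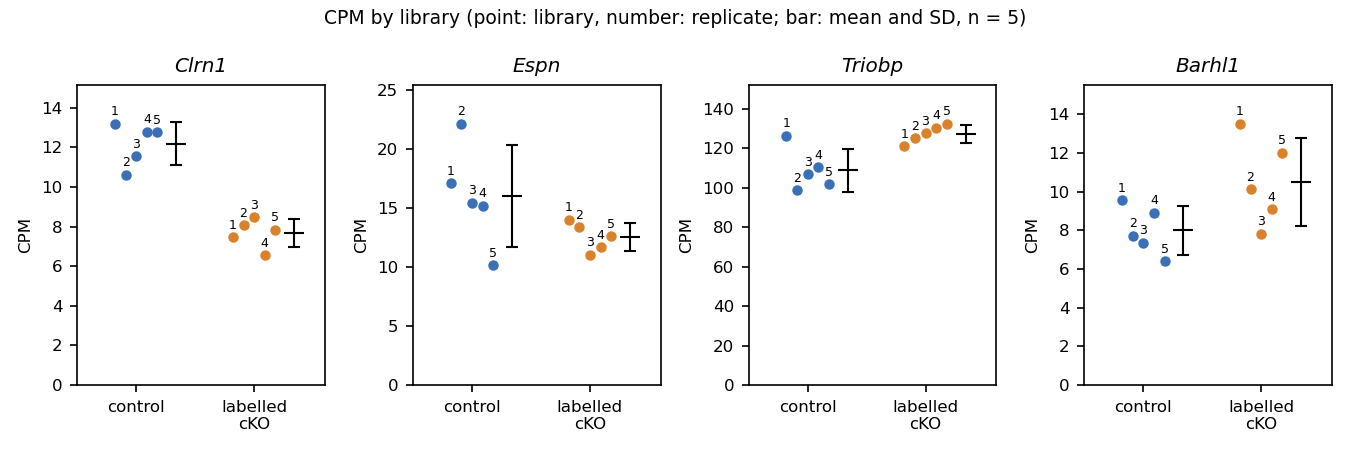
CPM per library (vertical axes, from 0) of Clrn1, Espn, Triobp and Barhl1 in 5 control (blue) and 5 libraries labelled cKO (orange), with points numbered by replicate and bars for mean and SD. Clrn1 alone of the 4 had no overlap, with 10.6 CPM in the lowest control and 8.48 CPM in the highest library labelled cKO.

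Taking the 40 tested genes together, 1 was lower and 0 were higher at an edgeR adjusted p under 0.05. DESeq2 gave the same counts, as did limma-voom, which was run with library quality weights here and below. Over all 17937 genes tested, 0.546% were lower and 0.0725% higher by that rule with edgeR, or 0.619% together. The share called in either direction was 1.71% with DESeq2 (1.41% lower and 0.301% higher) and 2.43% with limma-voom (2.02% lower and 0.413% higher). At an unadjusted p under 0.05 there were 2 lower and 2 higher genes, or 10.0%, close to the 9.65% of all tested genes (5.52% lower and 4.13% higher). A lack of overlap in CPM was found for 1 of the 40, where 2.84% of all tested genes showed it (1.64% lower and 1.2% higher). The median log2 fold change was -0.02, beside -0.01 for all genes. These shares are near the background, so the list as a whole did not stand apart from other genes by these counts.

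For the 39 genes that did not pass, the width of the interval says what size of change the data could still hold. In 38 of them the 95% interval lay between -1 and 1 on the log2 scale, and Slc26a5, with few counts, was the exception at -0.13 to 2.35. The narrowest standard error was 0.0765, for Triobp. Myo7a, a motor protein widely used to mark hair cells, had an interval of -0.19 to 0.40, and Pou4f3 one of -0.50 to 0.36. The direction of many values near 0 rested on single libraries: 16 of the 40 changed sign when some library was left out, none of them called.

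**Figure D2:**
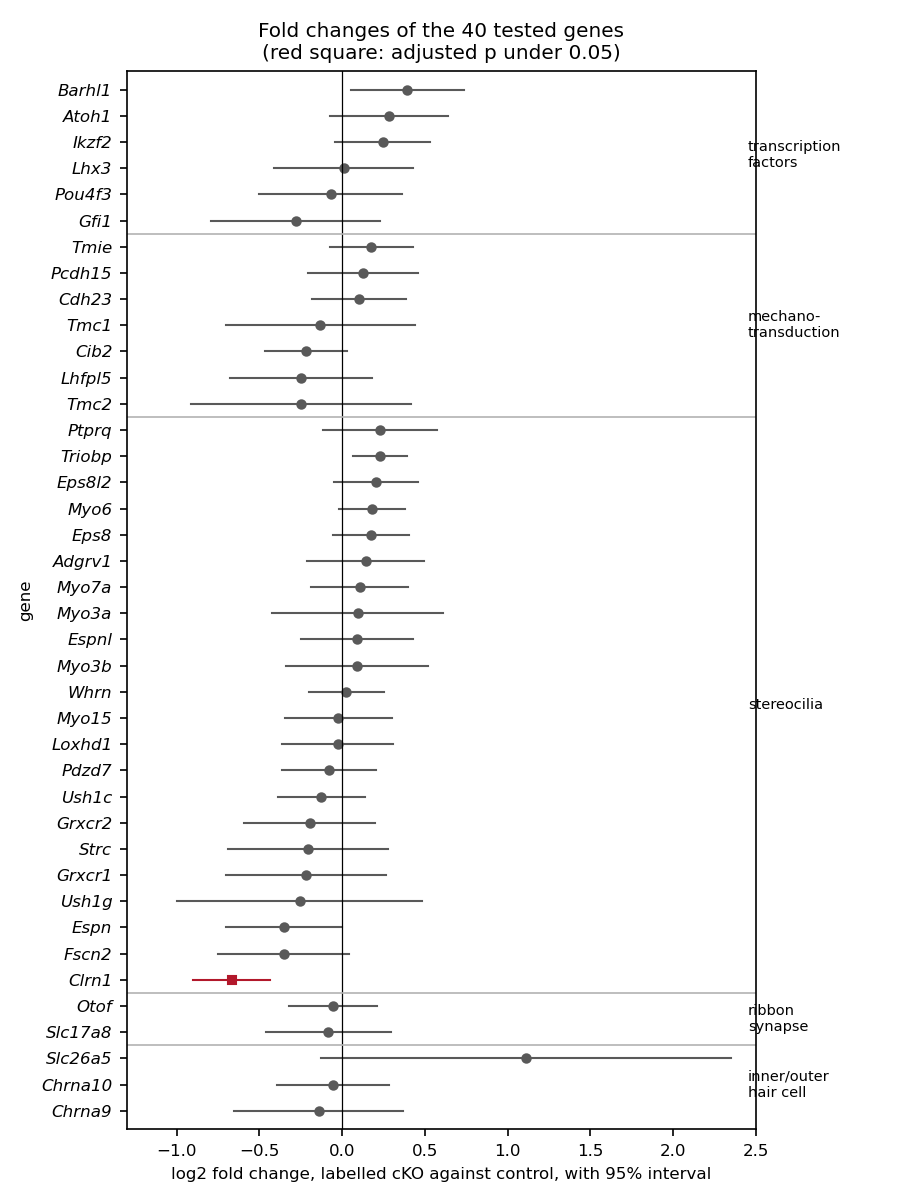
Log2 fold change of the libraries labelled cKO against controls (horizontal axis) for the 40 tested genes by class, with 95% intervals as lines. The red square marks Clrn1 at -0.67, the only gene with an edgeR adjusted p under 0.05, and the widest interval belongs to Slc26a5.

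Levels were compared between genes as FPKM, fragment counts scaled by library size and gene length, averaged over all 10 libraries. Cib2 was highest at 28.5 FPKM (libraries 24.2 to 40.4), followed by Myo6 at 16.5 (13.3 to 19.4) and Triobp at 9.54 (7.86 to 10.6). These 3 ranges did not overlap, so their order was the same in every library. Ush1c followed at 7.32 FPKM (5.66 to 9.21), whose range overlapped that of Triobp. At the low end, Ush1g had 0.123, Insm2 0.104 and Slc26a5 0.0784 FPKM, and the ranges of these 3 genes overlapped. A bulk level does not separate hair cells from other cells that use the same gene.

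**Figure D3:**
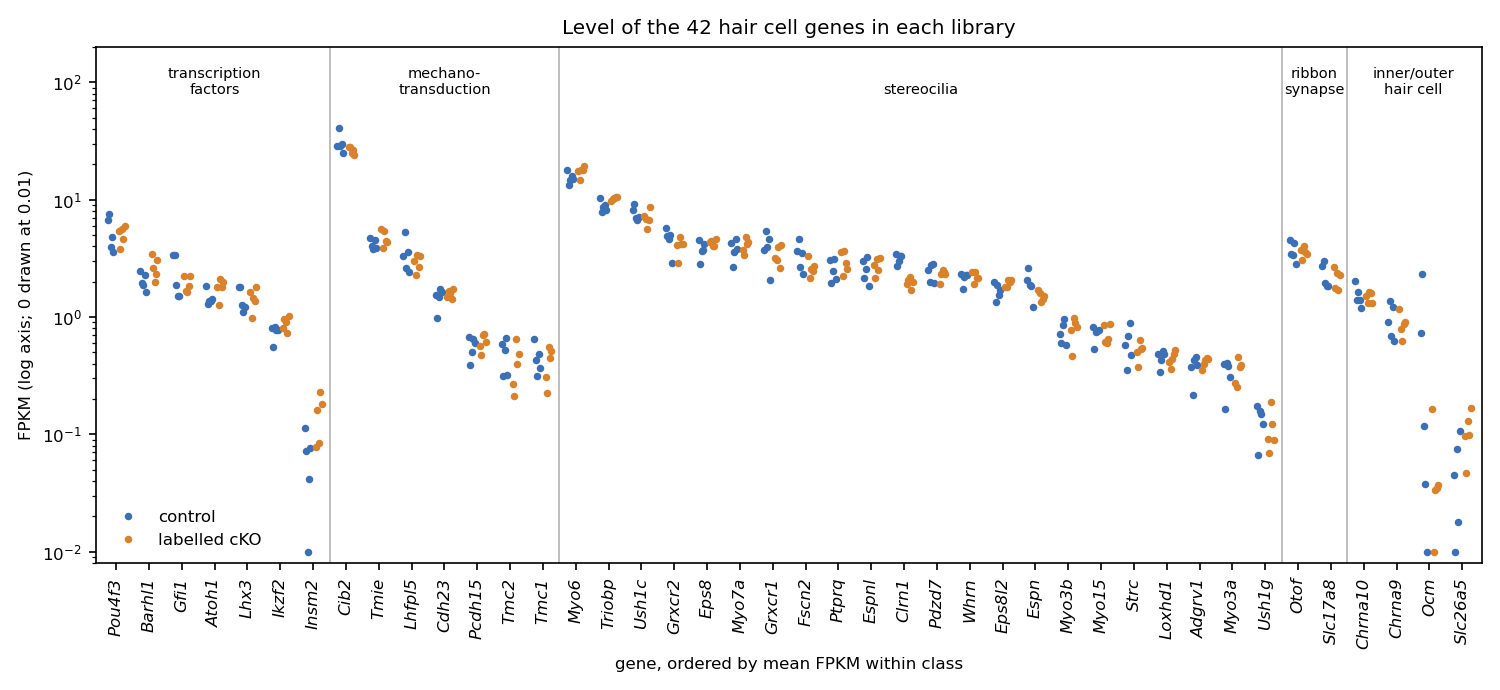
FPKM of all 42 genes (log axis, 0 drawn at 0.01) by class and mean level, with 5 points for control (blue) and 5 for libraries labelled cKO (orange). Levels run from 0.0784 for Slc26a5 to 28.5 FPKM for Cib2, and the genotypes overlap for every tested gene except Clrn1.

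Of the 7 transcription factors, 6 were tested and none was called in either direction by edgeR, DESeq2 or limma-voom. Only 1 gene (Barhl1) had an unadjusted p under 0.05, or 16.7%, against 9.65% of all tested genes. In this class 2 of 6 fitted values were below 0 and 4 above, and the log2 fold changes ran from -0.28 to 0.39 around a median of 0.13. Barhl1, a homeobox factor needed for long-term survival of hair cells, had 9.56, 7.73, 7.37, 8.92 and 6.39 CPM in control libraries 1 to 5 and 13.5, 10.1, 7.83, 9.09 and 12.02 CPM in libraries 1 to 5 labelled cKO. The highest library labelled cKO was number 1 and the lowest control number 5, and the groups overlapped. The result was a log2 fold change of 0.39 (SE 0.159, edgeR adjusted p 0.449), with an unadjusted p of 0.0265. Pou4f3, a POU-domain factor without which hair cells die, was the most abundant of the class at 5.18 FPKM. Pou4f3 had 15.8, 18.02, 9.31, 11.4 and 8.47 CPM in control libraries 1 to 5 and 12.8, 8.89, 13.3, 10.9 and 14.2 CPM in libraries 1 to 5 labelled cKO. Controls 1 and 2 were the 2 highest libraries and control 5 was the lowest, so the controls enclosed all libraries labelled cKO, with a log2 fold change of -0.07 (SE 0.201, edgeR adjusted p 0.926). Its direction was not stable, with a log2 fold change of 0.08 without control 2 alone. Without controls 1 and 2 it was 0.30, a setting chosen here and below after the data were seen. Leaving out the highest controls of a gene raises its value by construction.

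Atoh1, the basic helix-loop-helix factor that starts hair cell fate, had a log2 fold change of 0.28 (SE 0.165, edgeR adjusted p 0.619). Gfi1, a zinc finger repressor that keeps neuronal genes low in hair cells, had a log2 fold change of -0.28 (SE 0.238, edgeR adjusted p 0.719). Like Pou4f3 it was highest in controls 1 and 2, at 10.8 and 10.9 CPM, where the other 8 libraries lay between 4.79 and 7.19. Without these controls its log2 fold change was 0.23, a rise that follows from leaving out its highest controls. With single libraries left out, the log2 fold change of Gfi1 stayed between -0.41 and -0.11. Ikzf2, a factor of the outer hair cell programme, had a value of 0.24 and Lhx3, a LIM-homeobox factor, one of 0.01. Insm2 stayed below the minimum, with 13, 7, 0, 4 and 8 counts in control libraries 1 to 5 and 7, 15, 9, 24 and 18 counts in those labelled cKO. Exons of Gfi1, Lhx3 and Ikzf2 share bases with antisense genes, which cannot be told apart where counting ignores strand, and its use here is not given in the sources used.

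None of the 7 mechanotransduction genes was called, with none at an unadjusted p under 0.05 and none called by DESeq2 or limma-voom. In this class 4 of 7 fitted values were below 0 and 3 above, and the log2 fold changes ran from -0.25 to 0.18 around a median of -0.13. Cib2, a calcium- and integrin-binding protein of the channel complex, had 41.5, 59.1, 41.3, 43.1 and 36.1 CPM in control libraries 1 to 5 and 40.4, 40.5, 36.04, 37.8 and 35.3 CPM in libraries 1 to 5 labelled cKO. Control 2 was highest, the other 9 libraries lay close together and the groups overlapped, with a log2 fold change of -0.22 (SE 0.116, edgeR adjusted p 0.579). Without control 2 the log2 fold change was -0.10. Exons of Cib2 share bases with the antisense gene Sh2d7, and those of Tmie with Als2cl. Tmie and Lhfpl5, membrane partners that tie the channel to the tip link, had log2 fold changes of 0.18 and -0.25, the latter 0.01 without controls 1 and 2.

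The pore subunits were scarce: Tmc1 and Tmc2 had mean levels of 0.427 and 0.443 FPKM, with overlapping ranges over the libraries. Tmc2 is known as the earlier of the pair and Tmc1 as the mature form. Their log2 fold changes were -0.13 (SE 0.266) and -0.25 (SE 0.310). Of the tip link cadherins, Cdh23 had 26.3, 16.8, 25.1, 29.7 and 27.9 CPM in control libraries 1 to 5 and 25.4, 28.3, 26.98, 24.4 and 29.98 CPM in libraries 1 to 5 labelled cKO. Control 2 was the lowest library and the other 9 lay between 24.4 and 29.98 CPM. Pcdh15 had 15.95, 9.39, 12.03, 15.5 and 14.3 CPM in control libraries 1 to 5 and 13.5, 11.4, 16.9, 17.01 and 14.7 CPM in libraries 1 to 5 labelled cKO. Control 2 was again lowest, and the groups overlapped for both cadherins. Log2 fold changes were 0.10 for Cdh23 and 0.13 for Pcdh15, with edgeR adjusted p of 0.823 and 0.810. For Cdh23, the value was -0.04 without controls 1 and 2.

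Among the 22 genes of the stereocilia, Clrn1 was the only call. In this class 11 of 22 fitted values were below 0 and 11 above, and the log2 fold changes ran from -0.67 to 0.23 around a median of 0.00. The 5 unconventional myosins, motors that move along actin in the bundle, had log2 fold changes from -0.02 to 0.18. Myo6, which anchors stereocilia at their base, was the most abundant of them. Myo6 had 217, 164, 179.5, 195 and 182 CPM in control libraries 1 to 5 and 213, 179, 218, 216 and 238 CPM in libraries 1 to 5 labelled cKO. Library 5 labelled cKO was highest and control 2 lowest, and the groups overlapped, with a log2 fold change of 0.18 (SE 0.0928, edgeR adjusted p 0.568). Myo7a had a log2 fold change of 0.11 (SE 0.136, edgeR adjusted p 0.822), and its value was -0.00287 without control 2. Myo15, the motor that brings proteins to the stereocilia tip, had one of -0.02 (SE 0.150). Myo3a and Myo3b, related motors of the tip, had values of 0.09 and 0.09.

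Besides Clrn1, the 6 Usher and ankle link genes held Ush1c, Ush1g, Whrn, Adgrv1 and Pdzd7, with log2 fold changes from -0.26 for Ush1g to 0.14 for Adgrv1. Ush1c, which encodes the scaffold harmonin, had 31.6, 36.2, 26.7, 26.1 and 27.6 CPM in control libraries 1 to 5 and 27.9, 26.2, 21.9, 26.1 and 33.6 CPM in libraries 1 to 5 labelled cKO. Control 2 was highest and library 3 labelled cKO lowest, and the groups overlapped, with a log2 fold change of -0.13 (SE 0.122, edgeR adjusted p 0.755). Without controls 1 and 2 its log2 fold change was 0.01. Adgrv1, the large adhesion receptor of the ankle links, had a log2 fold change of 0.14 (SE 0.165, edgeR adjusted p 0.801), or -0.05 without those controls. Whrn, a scaffold of the tip and ankle, had a value of 0.03 and Pdzd7, a scaffold of the ankle links, one of -0.08. Exons of Ush1c and Pdzd7 share bases with Gm9860 and Lzts2, both antisense to them.

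Among the 8 genes for the actin core, tip and taper, 1 was lower (Espn) and 1 higher (Triobp) at an unadjusted p under 0.05. That is 25.0%, against 9.65% of all tested genes, and neither gene passed after adjustment. Espn, an actin bundler of the stereocilia (ENSMUSG00000028943; GRCm38 chromosome 4, 152120331 to 152152371, minus strand), had 17.1, 22.2, 15.5, 15.2 and 10.2 CPM in control libraries 1 to 5 and 14.03, 13.4, 11.1, 11.7 and 12.7 CPM in libraries 1 to 5 labelled cKO. Control 2 was highest but control 5 was the lowest of all 10 libraries, so the groups overlapped. The result was a log2 fold change of -0.35 (SE 0.164, edgeR adjusted p 0.517), with an unadjusted p of 0.0496. The log2 fold change was -0.22 without control 2, -0.13 without controls 1 and 2, and -0.48 without control 5.

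Triobp bundles actin in the rootlets that anchor stereocilia, and the gene (ENSMUSG00000033088; GRCm38 chromosome 15, 78947724 to 79005869, plus strand) lies 149 kb from Sox10, the gene for which the Cre line is named. Any part of this position in the Triobp values was not tested. Triobp had 126, 98.7, 107, 110.4 and 102 CPM in control libraries 1 to 5 and 121, 125, 128, 130.5 and 133 CPM in libraries 1 to 5 labelled cKO. Control 1 lay among the libraries labelled cKO, and the other 4 controls were below all of them. The result was a log2 fold change of 0.23 (SE 0.0765, edgeR adjusted p 0.327), with an unadjusted p of 0.0102. Over the alternatives its adjusted p ran from 0.0547 to 0.649. Exons of Triobp share bases with those of Gm10865, which is antisense to it.

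The other genes of the actin group did not pass. Eps8, which caps actin at the tip, came out at 0.18 (SE 0.107), and its relative Eps8l2 at 0.20 (SE 0.119), as log2 fold changes, with exons of Eps8l2 overlapping those of B230206H07Rik. Fscn2, an actin crosslinker, had a log2 fold change of -0.35 (SE 0.185, edgeR adjusted p 0.578), which was -0.22 without control 2 and -0.11 without controls 1 and 2. Grxcr1 and Grxcr2, glutaredoxin-like proteins that shape the bundle, had values of -0.22 and -0.20, or -0.08 without control 2 for Grxcr1 and -0.11 without control 1 for Grxcr2. Eps8 and Eps8l2 came to 0.08 and 0.12 without control 2. Espnl, a relative of Espn, had one of 0.09. Of the 3 genes for links and membrane proteins, Ptprq, a phosphatase of the shaft connectors, had 22.9, 14.9, 18.6, 23.4 and 15.9 CPM in control libraries 1 to 5 and 26.98, 16.8, 27.3, 21.7 and 19.5 CPM in libraries 1 to 5 labelled cKO. Its highest library was number 3 labelled cKO and its lowest control 2, with a log2 fold change of 0.23 (SE 0.160, edgeR adjusted p 0.661). Strc, which encodes stereocilin of the top connectors, and Loxhd1, a protein of mature bundles, had values of -0.20 and -0.03. The value of Strc was -0.02 without control 4 and -0.41 without controls 1 and 2.

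The ribbon synapse was represented by Otof, the calcium sensor of glutamate release, and Slc17a8, the vesicular glutamate transporter of inner hair cells. Neither was called, with none at an unadjusted p under 0.05 and none by DESeq2 or limma-voom. Otof had 36.1, 27.97, 26.8, 33.98 and 22.7 CPM in control libraries 1 to 5 and 29.6, 24.2, 31.8, 28.6 and 27.6 CPM in libraries 1 to 5 labelled cKO. Control 1 was highest and control 5 lowest, so the controls enclosed the other group, with a log2 fold change of -0.06 (SE 0.124, edgeR adjusted p 0.901). Slc17a8 had 12.97, 14.6, 9.28, 8.65 and 8.80 CPM in control libraries 1 to 5 and 12.5, 8.38, 11.3, 7.97 and 11.01 CPM in libraries 1 to 5 labelled cKO. Control 2 was highest and library 4 labelled cKO lowest, and the groups overlapped, with a log2 fold change of -0.09 (SE 0.176, edgeR adjusted p 0.896). Without controls 1 and 2 the log2 fold change of Slc17a8 was 0.19.

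Genes of the efferent receptor and of outer hair cells made up the last class, with no call among the 3 tested, none at an unadjusted p under 0.05 and none by DESeq2 or limma-voom. Chrna9 and Chrna10 encode the subunits of the acetylcholine receptor through which efferent fibres inhibit hair cells. Chrna9 had 2.73, 4.19, 2.09, 3.69 and 1.89 CPM in control libraries 1 to 5 and 3.54, 2.40, 1.89, 2.63 and 2.76 CPM in libraries 1 to 5 labelled cKO. Chrna10 had 5.36, 3.71, 4.32, 3.69 and 3.20 CPM in control libraries 1 to 5 and 3.96, 3.46, 4.33, 4.24 and 3.53 CPM in libraries 1 to 5 labelled cKO. The groups overlapped for both, and the fitted log2 fold changes were -0.14 for Chrna9 (SE 0.237) and -0.06 for Chrna10 (SE 0.158); exons of Chrna10 overlap those of Art1 over 1025 bases. Slc26a5 encodes prestin, the motor of outer hair cell electromotility, which is known to rise after birth. It had 6, 0, 8, 2 and 13 counts in control libraries 1 to 5 and 10, 5, 16, 12 and 19 counts in those labelled cKO. These are near the minimum for testing, and the result was a log2 fold change of 1.11 (SE 0.577, edgeR adjusted p 0.575). Slc26a5 reached 10 counts only in control 5 and in libraries 1, 3, 4 and 5 labelled cKO. It thus met the minimum mainly through the group where it was higher, and its fold change is not independent of that minimum.

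Ocm encodes oncomodulin, a calcium buffer of outer hair cells and of some vestibular hair cells. It had 23, 62, 3, 1 and 0 counts in control libraries 1 to 5 and 4, 0, 1, 1 and 1 counts in those labelled cKO. Controls 1 and 2 held most of these counts, and every other library had at most 4, so no fold change is given. Otop1, a proton channel gene of the otolith-bearing vestibular organs that was listed as a vestibular marker, had 77, 62, 3, 9 and 5 counts in control libraries 1 to 5 and 14, 21, 13, 13 and 16 counts in those labelled cKO. The same 2 controls were highest for both genes. Of the other hair cell genes, Cabp2, Kcna10, Fgf8 and Xirp2 had their 2 highest CPM values in controls 1 and 2 too. These 4 were chosen after their values were seen, and how many of that list share the pattern was not counted. Not all did: Cacna1d, Bsn and Pclo had their lowest CPM of all libraries in control 2, at 19.5, 11.2 and 10.5. Merged exons were 12621, 15938 and 22457 bases long in Cacna1d, Bsn and Pclo. They were 1350 in Cabp2, 2168 in Kcna10 and 11979 in Xirp2. Control 2 was lower for long genes, as given below, and the part of gene length in this contrast was not tested. Over the 4 vestibular markers, none was called by edgeR or DESeq2, and limma-voom called Sparcl1. At an unadjusted p under 0.05, 1 was lower and 0 higher, or 25.0%, against 9.65% of all tested genes. That gene is also Sparcl1, whose edgeR log2 fold change was -0.36 (adjusted p 0.230) with no overlap between genotypes. The summed level of the vestibular markers was 2710.1 to 3602 CPM in the controls and 2576 to 3070.1 CPM in the libraries labelled cKO. Their mean levels ran from 0.176 to 697 FPKM, so the sum does not reflect scarce markers such as Otop1. The part of vestibular tissue in these values was not tested. Without controls 1 and 2, Clrn1 had a log2 fold change of -0.70 and remained the only call in the list.

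**Figure D4:**
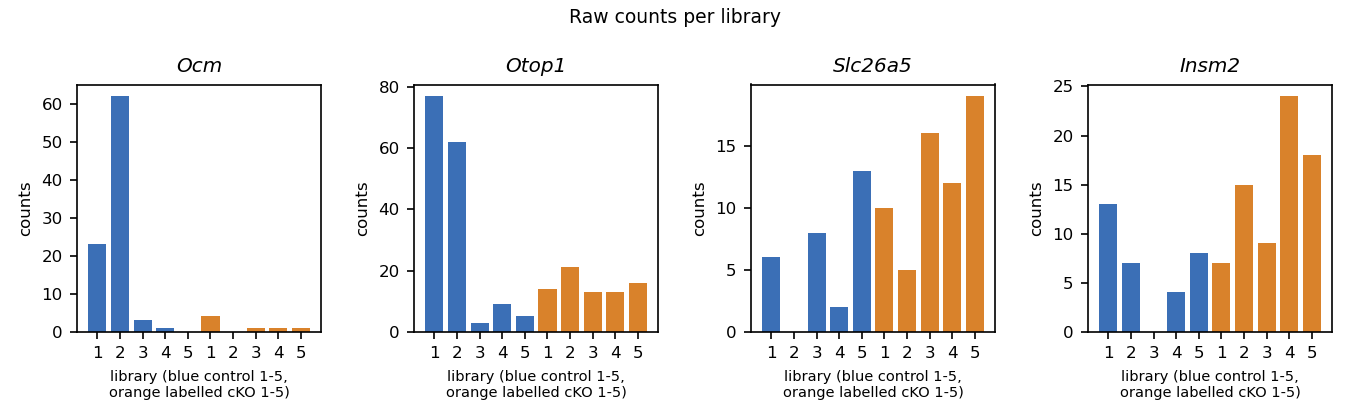
Raw counts (vertical axes, from 0) of Ocm, the vestibular marker Otop1, Slc26a5 and Insm2 in control libraries 1 to 5 (blue) and libraries 1 to 5 labelled cKO (orange). Control 2 holds 62 counts of Ocm and control 1 holds 23, while the other 8 libraries hold 4 or fewer.

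Libraries differed in how many of the 40 tested genes they held at an extreme. Control 1 was the highest control for 16 and the lowest for 0. Control 2 was the lowest control for 20 of them and the highest for 11. The 20 genes with the longest merged exons, 5377 to 24878 bases, had their lowest control value in control 2 in 15 cases and their highest in 1. For the 20 genes with the shortest, 1071 to 4720 bases, these counts were 5 and 10. The median deviation of control 2 from the mean of the 10 libraries was -0.40 log2 units for the long and 0.30 for the short genes. This was not limited to hair cell genes. Over all tested genes, the deviation of control 2 from its group mean had a correlation of -0.349 with log2 gene length. That correlation was 0.116 to 0.168 in the other controls and -0.165 to 0.158 in the libraries labelled cKO. Espn, with long exons, went with the short genes, and Clrn1 in control 2 was the lowest control value at 10.6 CPM. Among the libraries labelled cKO, number 2 was lowest for 23 of the 40 genes, 11 short and 12 long. With an offset for gene length, the log2 fold change of Clrn1 was -0.65, and it was still the only call.

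**Figure D5:**
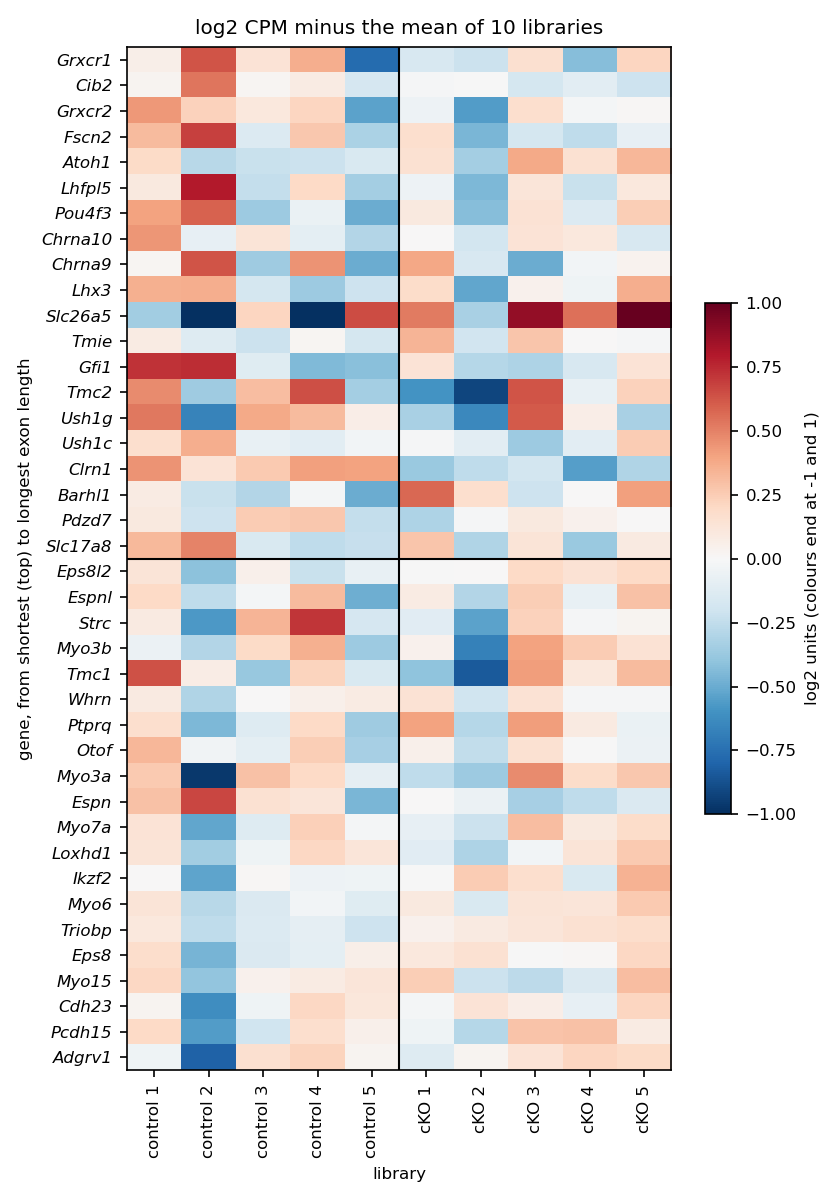
Log2 CPM minus the mean of the 10 libraries (colour, ending at -1 and 1) for 40 genes ordered from shortest to longest exon length (rows) in 10 libraries (columns), with a line between the 20 shorter and 20 longer genes. Control 2 is mostly blue among the long genes, where its median is -0.40, and Clrn1 changes colour at the line between genotypes.

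A further 50 hair cell genes, listed with earlier results of these data known, were read off the same fit to place these results. All were tested, and 2 were lower (Calb2 and Pvalb) and 0 higher at an edgeR adjusted p under 0.05, against 0.619% called of all tested genes. At an unadjusted p under 0.05, 10 were lower and 2 higher, or 24.0%, against 9.65% of all tested genes. The median log2 fold change was -0.07. Calb2 and Pvalb, calcium buffers that spiral ganglion neurons also use, had log2 fold changes of -1.67 and -1.21. The part of the lower neuron markers given above in these values was not tested. The call of Pvalb was lost in 8 of the 10 fits with a library left out, where its adjusted p reached at most 0.128 without control 2, and that of Calb2 in none. Of the 9 genes of the ribbon and presynapse, 8 had fitted values below 0 and none was called by edgeR with all libraries. At an unadjusted p under 0.05 there were 3 (Rimbp2, Cabp1 and Cabp2), or 33.3%. Otof and Slc17a8, given above, had log2 fold changes of -0.06 and -0.09. The part of the lower neuron markers, and of the brain markers given below, in these 9 genes was not tested. With limma-voom, Rimbp2 and Cacna1d, a subunit of the presynaptic calcium channel, were called. Cacna1d had an edgeR log2 fold change of -0.23 (adjusted p 0.687), and its adjusted p was 0.00659 without control 2. Control 2 was its lowest library, so leaving that library out lowers the fold change by construction. Cacna1d is named for this change, after its values were seen.

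Rimbp2 links calcium channels to release sites, and had 11.99, 8.27, 13.5, 13.9 and 12.1 CPM in control libraries 1 to 5 and 7.82, 5.00, 8.51, 6.82 and 7.60 CPM in libraries 1 to 5 labelled cKO. The groups overlapped only through control 2, and the result was a log2 fold change of -0.74 (SE 0.164, edgeR adjusted p 0.0681). Without control 2, its lowest control, the edgeR adjusted p was 0.00438. Leaving out the lowest control of a gene lowers its fold change by construction. Over all genes, calls also rose from 111 to 197 without control 2. Cabp1 and Cabp2, calcium-binding proteins that tune presynaptic calcium channels, came out at -0.77 and -1.35 as log2 fold changes, with edgeR adjusted p of 0.314 and 0.360. Insm1, a zinc finger factor that holds outer hair cells to their fate, had a log2 fold change of 0.50 (SE 0.177, edgeR adjusted p 0.355), and Rprm one of 0.37 (SE 0.132, edgeR adjusted p 0.360). Baiap2l2, a membrane-bending protein of the stereocilia tip, and Dner, a Notch ligand of hair cells and neurons, had values of -0.40 and -0.30, with edgeR adjusted p of 0.335 and 0.338. Casz1, a zinc finger factor, had one of -0.39, and edgeR gave it an adjusted p of 0.408. Leaving out control 2 brought that of Casz1 to 0.0122.

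Markers of neighbouring cells were read beside the hair cell genes. None of the 15 supporting cell markers was called by edgeR, DESeq2 called 0 and limma-voom 2. At an unadjusted p under 0.05, 3 were lower and 1 higher, or 26.7%, against 9.65% of all tested genes. Their summed level was 2409.9 to 2725 CPM in the controls and 2469 to 2596 CPM in the libraries labelled cKO. None of the 8 glia markers was called by edgeR, with 4 lower and 0 higher at an unadjusted p under 0.05, and DESeq2 called 2 and limma-voom 2. The summed level of the glia markers was 1162 to 1328 CPM in the controls and 802 to 1239 CPM in the libraries labelled cKO. Of 7 brain markers, 5 were tested and 4 (Olig1, Olig2, Aqp4 and Cbln1) were lower by edgeR, against 0.546% of all tested genes. All the marker lists were chosen with earlier results of these data known, so their shares are descriptions and no independent support. The summed level of the brain markers was 19.7 to 26.4 CPM in the controls and 8.29 to 11.5 CPM in the libraries labelled cKO. The part of brain tissue in the hair cell gene values was not tested.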

How the data were processed

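RNA of 5 control and 5 animals labelled cKO was read as polyadenylated RNA in paired reads of 150 bp, per the labels' protocols. The authors deposited raw counts per Ensembl gene and FPKM values; the submitters' processing notes name STAR 2.5, HTSeq 0.61, DESeq2 and build mm10, with no role for each. Strand use and annotation are not given in the sources used here. Symbols and positions come from GENCODE M21 (GRCm38), whose exon lengths matched those implied by the deposited FPKM and counts within 0.1% for 95.3% of 13923 genes that reached 50 counts in all libraries.

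Genes were kept by filterByExpr (17937), scaled by TMM factors and tested with edgeR 4.0.16 (quasi-likelihood F-test, robust, genotype only), with Benjamini-Hochberg adjustment over all of them. A call is an adjusted p under 0.05. SEs come from the F statistic, and 95% intervals from the t distribution with the fit's degrees of freedom. Alternatives were DESeq2 1.42.0, limma-voom with library quality weights (called limma-voom throughout) and log2(FPKM + 1 or 0.1) with limma 3.58.1. Others were RLE or upper-quartile factors, no filter or 10 counts in 5 libraries, a gene length offset, a replicate block, and libraries left out. The method was tested on simulated data.

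The genes, lists and rule for named genes were chosen with earlier results of these data known. The rule gave per-library values to genes with an unadjusted p under 0.05 or no overlap, and in each role to the most abundant gene and that with the smallest p; at most 10 further hair cell genes with the smallest p were named, beside those said to be chosen later. P-values measure the spread between animals. A marker planned for the neuron list is not reported here.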

Additional observations from a re-analysis of the deposited data

Results flagged for a closer look

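A library apart from the other 4 of its genotype was looked for by Dixon's test in the CPM of all 42 genes in both groups, 84 groups in all, where chance gives about 5% of groups. There were 4 such cases, about the number chance gives. Atoh1 was high in control 1, with 3.92 CPM against 2.81 to 3.07 in the other controls. Control 2 was low for Ikzf2, with 6.52 CPM against 9.09 to 9.48, and for Whrn, with 13.1 CPM against 16.2 to 17.2; both are among the longer genes. Ocm was highest in library 1 labelled cKO, with 0.120 CPM against 0 to 0.0273, which rests on 4 counts.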

How the results depend on the processing

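Clrn1 was called in all 22 alternatives run, with adjusted p up to 0.0420 and log2 fold changes from -0.72 to -0.47 (the smallest size on log2(FPKM + 1)), and the count of called genes in the list stayed at 1. Of the 40 tested genes, 21 kept their direction in all of these alternatives and 19 did not, none of them called. The median of the list ran from -0.07 to 0.04 on the log2 scale. The calls over all genes, 111, were 307 with DESeq2, 436 with limma-voom, 197 with the gene length offset and replicate block together, 181 without controls 1 and 2 (chosen after seeing the data), and between 52 (without control 3) and 197 (without control 2) with a library left out; the cause was not tested. Of the other hair cell genes, 2 were called, 7 with limma-voom, 4 without controls 1 and 2, and 1 to 4 with a library left out; the cause was not tested. As a replicate block, the replicate number gave 101 calls over all genes, 1 in the list and 2 among the other hair cell genes, with a list median of -0.03. Same-numbered libraries had correlated deviations of 0.0552 to 0.202 over the 500 most variable genes, and 3 of the 5 controls correlated best with their own number; since not every correlation was over 0.1, the number was not taken as a pairing. Genes with few counts, such as Slc26a5 and Ush1g, were limited by depth.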
